A study of Mus musculus with 12 samples.

Results

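The genes described here are 36 genes of glucose breakdown, the pentose phosphate pathway and the response to low oxygen, picked out of the deposited gene table by their symbols. They fill 37 of its 54532 rows, because Aldoa stands on 2 rows, and all 37 rows passed the filter on low counts that left 14855 genes for testing. The RNA came from 3T3-L1 cells, a wild-type mouse preadipocyte line that hormones can drive to become fat cells. All 12 libraries were taken on day 6 and form 4 groups of 3. One group was untreated. A second received DMI, the differentiation cocktail of dexamethasone (1 µM), IBMX (0.5 mM) and insulin (10 µg/ml), followed by insulin alone and then by serum medium. The other two groups received the same DMI with luteolin or with quercetin, plant polyphenols whose doses and times of addition the labels do not give. One treatment text is repeated on all 12 samples, so only the titles and treatment tags set the untreated cells apart. The labels do not name separate cultures for the 3 libraries of a group, and the spread behind the p-values may therefore be technical.

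Glycolysis splits glucose into pyruvate, and most of its steps have several isozymes encoded by separate genes. The pentose phosphate pathway branches off at glucose 6-phosphate and yields NADPH, which fat cells use to build fatty acids, while glycolysis supplies them with glycerol phosphate for triglyceride. Many glycolytic genes are known targets of hypoxia-inducible factors (HIFs), transcription factors whose alpha subunits are marked for destruction by the oxygen-dependent prolyl hydroxylases Egln1, Egln2 and Egln3.

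Library totals ran from 14522182 to 19436796 counts. Levels are given in CPM, counts scaled to library size by TMM, in the order of libraries 1, 2 and 3 of a group. The third libraries of the induced groups stood apart from their partners. In DMI library 3 the level was the lowest of its group for 30 of the 37 rows (44.8% of all genes tested), in luteolin library 3 for 22 (42.0%) and in quercetin library 3 for 24 (42.2%). Fabp4, a fatty acid carrier of adipocytes, was low in the same libraries, at 2958, 3896 and 840.3 CPM with DMI, 1812, 2076 and 793.5 CPM with luteolin, and 1197, 1274 and 204.7 CPM with quercetin. Of the listed markers of mature adipocytes 8 of 8 rose with DMI (against 14.7% of all genes tested), and of the preadipocyte and fibroblast markers 6 of 8 fell (against 12.4%). The summed adipocyte markers ranged from 680 to 706 CPM in untreated libraries, 6370 to 23000 with DMI, 5740 to 13600 with luteolin and 3210 to 7150 with quercetin. In bulk RNA, fewer adipocytes and less RNA of a gene per adipocyte cannot be told apart, and the part of these markers in the results below was not tested. Macrophage, endothelial and epithelial markers summed to at most 5.07 CPM in any library, with Adgre1 at 0 counts throughout. Muscle markers summed to 2.54 to 4.66 CPM in untreated libraries and 9.23 to 28.4 with DMI, with Myod1, Myog and Ckm at 0. Of the 2 muscle markers tested 1 rose with DMI (against 14.7% of all genes tested). Des measured 2.24, 2.03 and 1.27 CPM in untreated libraries and 25.6, 25.9 and 8.43 with DMI, while Tnnt3 measured 2.30, 2.03 and 1.27 against 1.89, 1.03 and 0.616.

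Divided by gene length, the highest levels among the members in untreated cells were those of Pkm, the pyruvate kinase of most growing cells, at 211 ± 17.3 CPM per kilobase (SD, n = 3), and Aldoa, the main aldolase outside liver, at 210.2 ± 3.23. These 2 neighbours did not differ beyond their spread. Next came Pgk1 at 161 ± 2.45, Pgam1 at 135 ± 3.63 and Tpi1 at 118 ± 3.17 CPM per kilobase. With DMI, Aldoa stood first at 708 ± 308 CPM per kilobase, followed by Pgam1 at 251 ± 68.0, Tpi1 at 248 ± 78.7, Ldha at 230.5 ± 82.3 and Pgk1 at 219.9 ± 39.0. These 4 genes behind Aldoa did not differ beyond their spread. Pkm followed behind Ldhb, at 181 ± 15.6 and 191 ± 88.1 CPM per kilobase. With quercetin Aldoa was again first, at 288 ± 116, and Pkm came next at 187 ± 2.13 CPM per kilobase. At the low end, Aldoc, the brain aldolase, and Slc16a3, a lactate exporter, stayed under 0.4 CPM per kilobase in every group mean. The 8 highest members in untreated and in DMI cells had the same ranks in the FPKM values deposited by the authors.

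The comparison of DMI with untreated cells asks how these genes stood on day 6 of induction. Of the 37 rows 19 rose (51.4%, against 14.7% of all genes tested) and 3 fell (8.11%, against 12.4%), by edgeR's quasi-likelihood test at an adjusted p of 0.05. The rises were spread over every role: 4 of 6 genes of the upper part of glycolysis, 2 of 4 bifunctional control enzymes, 4 of 9 genes of the lower part, 2 of 4 lactate genes, 5 of 6 pentose phosphate genes and 2 of 7 hypoxia-response genes. The median log2 fold change over the 37 rows was 0.64, and over all genes tested it was -0.04. The 3 DMI libraries lay above all 3 untreated libraries for 21 rows (56.8%, against 22.7% of all genes) and below them for 6 (16.2%, against 29.4%). Log2 fold changes were below 0 for 10 rows (27.0%, against 53.4%), and 24 had an unadjusted p under 0.05 (64.9%, against 39.1%). When each of the 12 libraries was left out in turn, 17 of the 19 rises kept their call every time, and the exceptions were Gpi1 and Pgk1. With library 3 of each induced group left out, an alternative chosen after the values were known, 23 rows rose and 5 fell (7970 of 15106 genes were called in all).

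**Figure D1:**
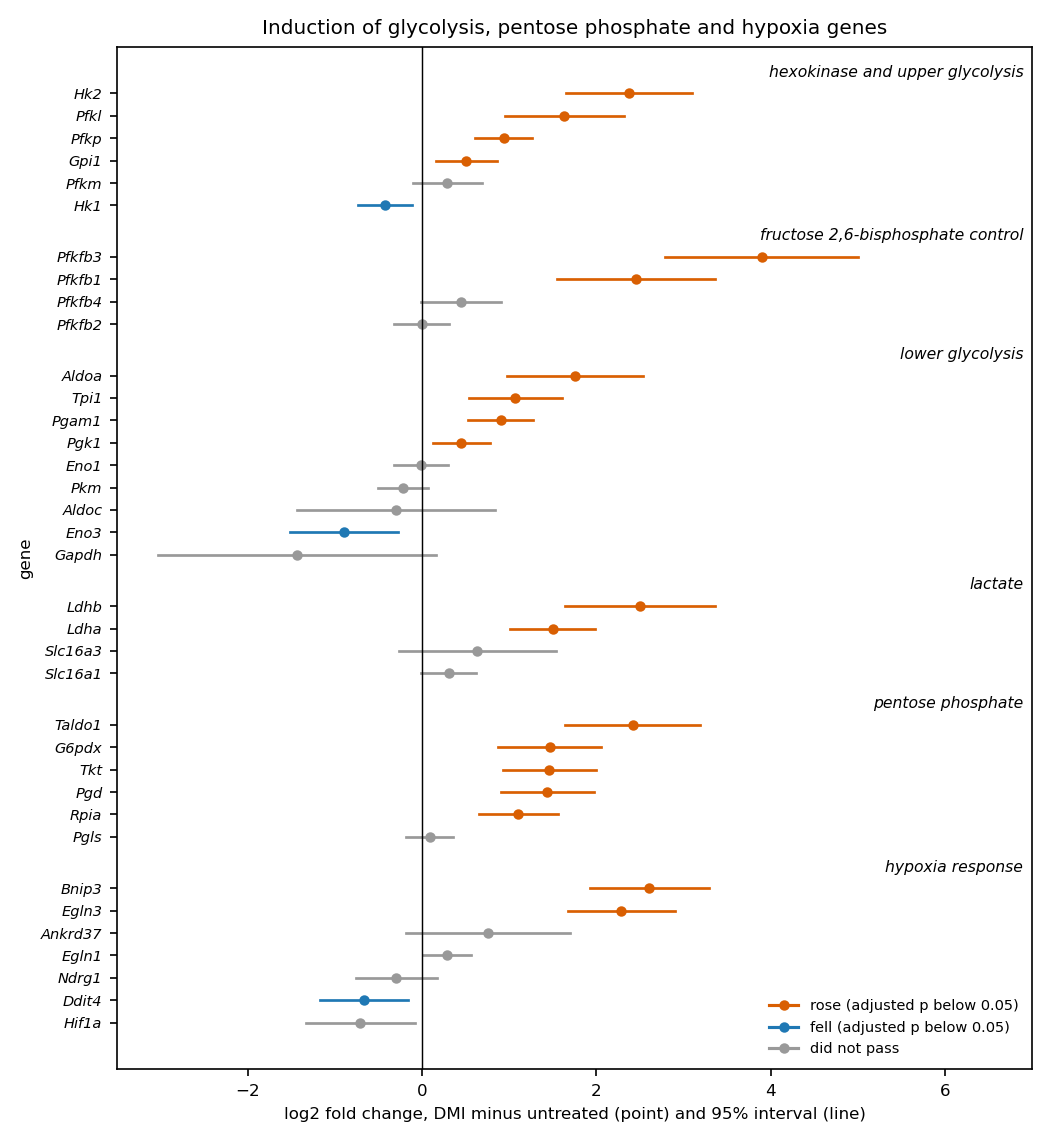
Log2 fold change of each of the 36 genes between DMI and untreated cells (x axis), with its 95% interval, grouped by role (y axis: gene). Points to the right of 0 are higher with DMI, the 19 orange ones passed the test upward and the 3 blue ones downward, and the second, shorter Aldoa row is not drawn.

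In the upper part of glycolysis, Hk2, the hexokinase that insulin raises in muscle and fat, measured 32.7, 30.4 and 35.3 CPM in the untreated libraries and 200.4, 222 and 89.0 CPM with DMI. Every DMI library was above every untreated one, though the third DMI library was well under the other two. Hk2 rose 5.19-fold (log2 change of 2.38 with SE 0.33, edgeR quasi-likelihood adjusted p = 0.000574). Pfkl, the liver-type subunit of phosphofructokinase, the committing step of glycolysis, went from 68.7, 63.0 and 57.6 to 216, 261 and 111 CPM and rose 3.11-fold (log2 change of 1.63 with SE 0.31, edgeR quasi-likelihood adjusted p = 0.00325). The platelet-type subunit Pfkp rose less, from 40.8, 41.5 and 40.6 to 84.4, 91.9 and 59.5 CPM (log2 change of 0.94 with SE 0.15, edgeR quasi-likelihood adjusted p = 0.00124). The muscle-type subunit Pfkm did not pass the test, at 72.9, 71.7 and 71.6 against 90.3, 96.0 and 78.2 CPM (log2 fold change 0.29). In untreated and DMI cells the libraries of these 4 genes did not overlap between the groups.

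Gpi1, the isomerase that follows hexokinase, rose from 248, 252 and 250.4 to 373, 433 and 263 CPM (log2 change of 0.51 with SE 0.16, edgeR quasi-likelihood adjusted p = 0.0357), with DMI library 3 just above the untreated range. Hk1, the widely expressed hexokinase, was the member of this group that fell, from 114, 124 and 119.8 to 80.4, 81.0 and 105 CPM (log2 change of -0.42 with SE 0.14, edgeR quasi-likelihood adjusted p = 0.0438). Neither passed without any 1 untreated library, DMI library 1 or 2, or luteolin library 1. Adjusted p (edgeR quasi-likelihood test) was then 0.0531 to 0.189 for Gpi1 and 0.0613 to 0.179 for Hk1. Hk1 also missed the threshold without luteolin library 2 (adjusted p = 0.0598) or quercetin library 2 (0.0506), and under RLE scaling (0.0704).

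Bifunctional enzymes of the Pfkfb family make and break fructose 2,6-bisphosphate, the strongest activator of phosphofructokinase. Pfkfb3, the form with the highest kinase activity, showed the largest change of all 36 genes. It measured 11.3, 9.60 and 13.4 CPM in untreated cells and 207, 228 and 76.2 CPM with DMI, a 14.9-fold rise (log2 change of 3.90 with SE 0.51, edgeR quasi-likelihood adjusted p = 0.000394). The lowest DMI library was still several times the highest untreated one. Pfkfb1, the form known from liver and muscle, went from 5.04, 5.13 and 5.02 to 36.4, 37.3 and 9.97 CPM (log2 change of 2.46 with SE 0.42, edgeR quasi-likelihood adjusted p = 0.00165). The span of Pfkfb1 overlaps that of Apex2, a DNA repair gene on the opposite strand. Reads from a stretch that both genes share cannot be told apart, because the library kit does not mark strand. How much of their exons is shared was not looked at. Apex2 rose as well, by 1.46 on the log2 scale (adjusted p = 0.00162, edgeR quasi-likelihood test). The same limit holds for Pfkp and Pitrm1 (11393 and 34427 counts over all libraries) and for Ankrd37 and Ufsp2 (248 and 11458). It also holds for Pfkm, Pfkfb2, G6pdx, Gapdh and the second Aldoa row, which overlap Senp1, Yod1, Ikbkg, Iffo1 and Fam57b in that order. Pfkfb2 and Pfkfb4 did not pass, with log2 fold changes of -0.0057 and 0.45.

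In the lower part of glycolysis Aldoa, which splits fructose 1,6-bisphosphate, measured 605, 622 and 608 CPM in untreated cells. With DMI it stood at 2353, 2777 and 1054 CPM, above every untreated library, and rose 3.37-fold (log2 change of 1.75 with SE 0.36, edgeR quasi-likelihood adjusted p = 0.00445). Tpi1, which interconverts the triose phosphates, went from 319.8, 335 and 320.2 to 730.5, 869 and 445 CPM (log2 change of 1.07 with SE 0.25, edgeR quasi-likelihood adjusted p = 0.0081). Pgam1, the phosphoglycerate mutase, went from 239, 249.6 and 251 to 507, 554 and 319 CPM (log2 change of 0.90 with SE 0.17, edgeR quasi-likelihood adjusted p = 0.00335). Neither gene's groups overlapped. Pgk1, which makes the first ATP of the pathway, rose from 359, 368 and 357 to 522, 563 and 395 CPM (log2 change of 0.45 with SE 0.15, edgeR quasi-likelihood adjusted p = 0.0429). Its call ended without any 1 of 8 libraries, with adjusted p from 0.0535 without luteolin library 3 to 0.193 without DMI library 2. The others of the 8 are the untreated libraries, DMI library 1 and luteolin libraries 1 and 2.

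The last steps of the pathway did not rise. Pkm measured 1017, 992 and 1153 CPM in untreated cells and 821, 914 and 977 CPM with DMI (log2 fold change -0.22, 95% interval -0.51 to 0.069, adjusted p = 0.243), and its groups did not overlap. Eno1, the common enolase, measured 381, 379.6 and 379 against 376, 389 and 363 CPM (log2 fold change -0.015, 95% interval -0.33 to 0.30). Eno1b, a near-identical copy of Eno1 whose counts came to 39.8% of those of Eno1, showed a log2 fold change of -0.042, and reads may have been shared between them. Eno3, the muscle enolase, fell from 14.2, 17.3 and 18.1 to 6.10, 8.84 and 11.8 CPM (log2 change of -0.89 with SE 0.29, edgeR quasi-likelihood adjusted p = 0.0367). That call ended without any 1 untreated library, DMI library 1 or 2 or luteolin library 1, with adjusted p of 0.0515 to 0.156. Aldoc and the second Aldoa row (ENSMUSG00000114515) were low, at no more than 1.01 and 3.22 CPM in any untreated or DMI library, and did not pass.

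Gapdh, the next enzyme after the triose phosphates and a common reference transcript, gave no usable direction. Its raw counts were 143, 1855 and 148 in the untreated libraries and between 170 and 296 in the 9 induced ones. Untreated library 2 thus stood apart from both partners. With 1 CPM added to each side, its ratio to their mean was 11.3. By that measure, which lowers the ratios of genes with few counts most, it was the largest of any gene tested. With all libraries the log2 fold change between DMI and untreated was -1.44 (adjusted p = 0.166, edgeR's quasi-likelihood test). Without untreated library 2 it was 0.82 and passed (adjusted p = 0.04). Gapdh pseudogenes that could be recognised by their name or description held at most 4 counts each, and copies under other names were not searched. The sources used here do not give how reads with several matching places were counted, so the level of this gene is uncertain in all libraries.

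Lactate dehydrogenase interconverts pyruvate and lactate, and both subunit genes rose. Ldha, the subunit that favours lactate formation, measured 271, 263 and 276 CPM in untreated and 838, 989.8 and 461 CPM in DMI libraries, a 2.82-fold rise (log2 change of 1.5 with SE 0.22, edgeR quasi-likelihood adjusted p = 0.000836). Ldhb, the heart-type subunit, went from 54.1, 53.3 and 51.4 to 351, 406 and 144 CPM, a 5.67-fold rise (log2 change of 2.50 with SE 0.40, edgeR quasi-likelihood adjusted p = 0.00111). No DMI library of either gene reached down to the untreated range. Of the lactate carriers, Slc16a1 measured 56.9, 54.5 and 59.4 against 77.0, 75.8 and 58.1 CPM and Slc16a3 1.8, 1.31 and 0.786 against 2.14, 2.40 and 1.54 CPM, and neither passed (adjusted p = 0.137 and 0.279, edgeR quasi-likelihood test).

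All pentose phosphate genes except Pgls rose. G6pdx, the entry enzyme and a source of NADPH, went from 60.6, 62.4 and 68.6 to 201, 228 and 102 CPM (log2 change of 1.47 with SE 0.27, edgeR quasi-likelihood adjusted p = 0.00268). Pgd, the second NADPH-forming enzyme, went from 92.6, 97.6 and 104 to 289.9, 341 and 167 CPM (log2 change of 1.44 with SE 0.24, edgeR quasi-likelihood adjusted p = 0.00163). Both thus rose by about the same factor, 2.77-fold and 2.71-fold. Of the genes that rearrange the sugars afterwards, Taldo1, the transaldolase, changed most, from 54.6, 56.9 and 62.5 to 362, 409 and 157 CPM (log2 change of 2.42 with SE 0.36, edgeR quasi-likelihood adjusted p = 0.000783). Tkt, the transketolase, went from 150.2, 155 and 181 to 507, 563 and 268 CPM (log2 change of 1.46 with SE 0.25, edgeR quasi-likelihood adjusted p = 0.00158). Rpia, the ribose phosphate isomerase, went from 13.4, 16.0 and 13.9 to 34.7, 36.9 and 21.6 CPM (log2 change of 1.11 with SE 0.21, edgeR quasi-likelihood adjusted p = 0.00306). For each of these 5 genes the DMI libraries lay above the untreated ones. Pgls, the lactonase between G6pdx and Pgd, stayed at 104, 112 and 110.3 against 113, 124 and 109 CPM (log2 fold change 0.086, 95% interval -0.18 to 0.35).

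The hypoxia-response genes divided. Bnip3, a mitophagy receptor and known HIF target, measured 14.6, 18.1 and 14.7 CPM in untreated cells and 113, 129.9 and 45.9 CPM with DMI, a 6.09-fold rise (log2 change of 2.61 with SE 0.32, edgeR quasi-likelihood adjusted p = 0.000258). Egln3, a prolyl hydroxylase that is itself a HIF target, went from 11.9, 11.2 and 12.7 to 72.0, 73.2 and 29.8 CPM, a 4.89-fold rise (log2 change of 2.29 with SE 0.28, edgeR quasi-likelihood adjusted p = 0.000297). For both genes the lowest DMI library stood well above the highest untreated one. Ddit4, an inhibitor of mTORC1 signalling that stress and glucocorticoids induce, fell from 73.0, 71.3 and 81.5 to 38.0, 49.0 and 55.3 CPM (log2 change of -0.67 with SE 0.23, edgeR quasi-likelihood adjusted p = 0.0497). Its call was kept in 3 of the 12 leave-outs and ended in the others, with adjusted p of 0.0514 without quercetin library 1 to 0.195 without DMI library 1, and it ended under RLE scaling (adjusted p = 0.0689). Those 9 libraries are all the untreated and quercetin ones, DMI libraries 1 and 2 and luteolin library 1.

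Hif1a, the alpha subunit of HIF-1, measured 235, 239 and 264 CPM in untreated cells and 144, 119 and 188 CPM with DMI. All DMI libraries were below the untreated ones, but the difference did not pass (log2 fold change -0.71, SE 0.29, adjusted p = 0.0876, edgeR quasi-likelihood test). It passed, always lower, without DMI library 3 (-0.90, adjusted p = 0.0403), without quercetin library 3 (-0.65, adjusted p = 0.0118), with only the 6 libraries compared (-0.65, adjusted p = 0.0295) and without the low-count filter (-0.65, adjusted p = 0.00369). With library 3 of each induced group left out the value was -0.86 (adjusted p = 7e-06), and the same test was used in all of these. Egln1, the main oxygen-sensing hydroxylase, showed a log2 fold change of 0.28, the stress-response gene Ndrg1 one of -0.29, and the low-level HIF target Ankrd37 one of 0.76, and none of these passed.

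Promoter windows from RefSeq (GRCm38.p6, 250 bases before to 50 after each start) were found for 35 of the 36 genes, and Ndrg1 was not among them. The HIF core motif was searched as ACGTG and as GCGTG, and the E-box CACGTG, which contains ACGTG on both strands, as a motif that carbohydrate-responsive factors are known to bind. Both strands were read. The bases before the start are shown for 4 genes that rose with DMI and are known HIF targets, 2 of the hypoxia response and 2 of glycolysis, in lower case with each ACGTG or GCGTG, or its reverse complement, in capitals. Ldha is at chr7:46845554-46845803, plus strand, Hk2 at chr6:82774455-82774704, minus strand, Bnip3 at chr7:138909507-138909756, minus strand and Egln3 at chr12:54203875-54204124, minus strand, each written 5′ to 3′ along its gene. The Ldha window lies inside the deposited gene span, in an intron of a longer annotated transcript.
Ldha: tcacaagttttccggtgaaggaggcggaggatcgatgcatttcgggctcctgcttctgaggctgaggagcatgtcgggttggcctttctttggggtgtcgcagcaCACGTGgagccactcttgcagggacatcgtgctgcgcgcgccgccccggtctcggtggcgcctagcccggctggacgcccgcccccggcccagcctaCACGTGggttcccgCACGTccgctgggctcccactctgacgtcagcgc
Hk2: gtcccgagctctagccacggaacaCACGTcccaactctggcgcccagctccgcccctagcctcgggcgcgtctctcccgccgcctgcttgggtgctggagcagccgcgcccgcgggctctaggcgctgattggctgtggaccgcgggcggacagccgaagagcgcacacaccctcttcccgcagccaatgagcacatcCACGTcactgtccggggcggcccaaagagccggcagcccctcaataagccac
Bnip3: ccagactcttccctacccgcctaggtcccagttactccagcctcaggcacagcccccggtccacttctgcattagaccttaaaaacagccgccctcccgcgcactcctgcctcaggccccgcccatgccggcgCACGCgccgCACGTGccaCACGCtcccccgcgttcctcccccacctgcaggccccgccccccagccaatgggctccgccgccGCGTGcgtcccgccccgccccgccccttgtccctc
Egln3: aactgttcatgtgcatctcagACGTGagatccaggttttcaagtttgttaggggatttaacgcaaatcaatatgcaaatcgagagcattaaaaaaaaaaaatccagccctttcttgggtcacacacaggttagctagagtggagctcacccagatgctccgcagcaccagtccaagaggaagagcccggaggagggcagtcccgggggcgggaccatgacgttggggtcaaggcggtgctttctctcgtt

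The Ldha window holds CACGTG at 2 places and a further CACGT close to the second. Bnip3 has CACGTG once between matches to GCGTG, Hk2 has CACGT at 2 places, and Egln3 has ACGTG once, near the far end of the window. Over the full 300 bases ACGTG stood in 17 of 35 member promoters (48.6%), against 20.5% of 20484 promoters in the RefSeq table and 25.5% of the 10330 promoters of tested genes. GCGTG stood in 23 (65.7%, against 36.6% and 51.6%) and CACGTG in 5 (14.3%, against 7.68% and 10.1%). The median GC content was 60.7% both for the members and for tested genes, and 55% over the whole table. Among the 19 genes that rose, ACGTG stood in 8 (42.1%) and GCGTG in 12 (63.2%), shares that did not exceed those over the 35. A match or its absence describes the letters of these windows only.

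Isozyme families shifted in composition. The share of Hk2 in the summed level per kilobase of Hk1 and Hk2 was 29.1, 25.9 and 29.7% in untreated libraries and 78.1, 79.7 and 54.8% with DMI. With luteolin it was 63.3, 68.6 and 49.7% and with quercetin 51.4, 47.9 and 42.3%. Every induced library was thus above the untreated range, and the quercetin libraries were all below the DMI ones. Pfkl made up 29.3, 27.8 and 26.1% of the phosphofructokinase subunits in untreated cells and 49.2, 52.4 and 37.4% with DMI, where it rivalled Pfkm. With quercetin it was back at 32.9, 29.7 and 26.5%, overlapping the untreated range. Pfkfb3 made up 22.1, 19.1 and 26.1% of the Pfkfb family in untreated cells and 65.9, 67.4 and 60.5% with DMI, and 74.0, 73.9 and 59.0% and 64.5, 63.0 and 43.5% with luteolin and quercetin. Ldhb moved from 29.6, 29.9 and 28.2% to 46.9, 46.4 and 39.6% of the lactate dehydrogenases, and Egln3 from 18.9, 17.9 and 20.7% to 52.3, 52.2 and 36.9% of Egln1 and Egln3. With 3 libraries against 3 an exact test cannot go below 0.1, so no test of these shares is given.

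**Figure D2:**
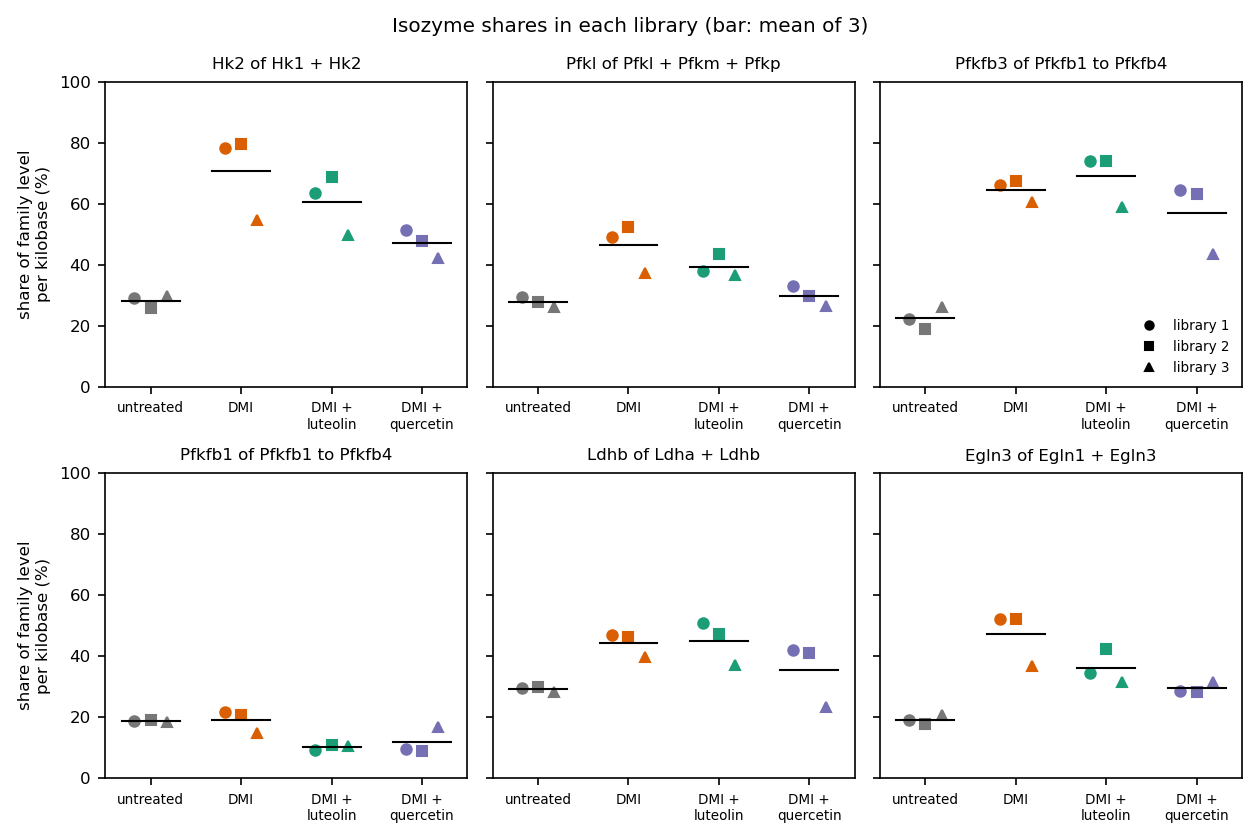
Share of 1 isozyme in the summed level per kilobase of its family (y axis, %) for each of the 12 libraries by group (x axis); marker shapes give the library number and bars the mean of 3. The Hk2 share is 54.8% to 79.7% with DMI against 25.9% to 29.7% in untreated cells, and lies between them with quercetin.

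Other genes of the same pathways, taken from lists that were not chosen for how they moved here but drawn up with earlier results known are given for comparison. Of 30 other enzymes of sugar phosphate metabolism 20 were tested, and 8 rose and 1 fell with DMI (14.7% of all genes tested rose and 12.4% fell), with a median log2 fold change of 0.45, against -0.04 for all genes. Gpd1, which makes glycerol phosphate for triglyceride, rose most, from 2.20 to 2375 CPM (log2 fold change 10.07, adjusted p = 0.000125, edgeR quasi-likelihood test). Pgm2, of the phosphoglucomutase family, rose by 1.82 and Prps1, which makes phosphoribosyl pyrophosphate, by 1.46 on the log2 scale, while the neuronal enolase Eno2 was the gene that fell (-0.78).

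Of 28 other HIF regulators and hypoxia-responsive genes 26 were tested, and 8 rose and 2 fell, again against 14.7% and 12.4% of all genes, with a median log2 fold change of 0.15. Epas1, the alpha subunit of HIF-2, rose from 10.2 to 101 CPM (log2 change of 3.31 with SE 0.40, edgeR quasi-likelihood adjusted p = 0.000264). Hif3a rose too, from 0.0409 to 2.17 CPM, both low levels. Pdk1, a mitochondrial kinase that inhibits pyruvate dehydrogenase, rose by 1.04 and the angiogenic factor Vegfa by 0.94 on the log2 scale. Slc2a1, a glucose transporter and textbook HIF target, showed a log2 fold change of 0.0065 and did not pass. The 2 that fell were the collagen-modifying enzymes P4ha1 (-0.68) and Lox (-0.70). None of the genes on these 2 lists passed in the comparisons with luteolin or quercetin, at 0 of 20 and 0 of 26 in each. Of all genes tested 0.0202% passed with luteolin against DMI, 1.01% with quercetin against DMI and 0% between the compounds.

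Luteolin and quercetin are each compared with DMI alone, which asks whether either compound changed the induced levels; both comparisons use the same 3 DMI libraries. With luteolin none of the 37 rows passed edgeR's quasi-likelihood test (0.0202% of all genes did), while 10 had an unadjusted p under 0.05 (27.0%, against 6.09% of all genes). DESeq2 called 1 row, Pfkfb1 (48 genes in all), and limma-voom 0 (0 genes in all). The median log2 fold change of the rows was -0.34, against -0.02 for all genes tested, and 31 of 37 values were below 0 (83.8%, against 53.2%). Libraries did not overlap for Ndrg1 and Ankrd37 alone, both lower (2 rows, 5.41%, against 5.24% of all genes), and 0 rows were higher without overlap (6.23% of all genes).

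Pfkfb1 had the largest difference among the 36 genes, at 9.95, 12.6 and 5.59 CPM with luteolin against 36.4, 37.3 and 9.97 with DMI alone (log2 change of -1.56 with SE 0.40, edgeR quasi-likelihood adjusted p = 0.454). The third DMI library lay inside the luteolin range. Egln3 measured 24.7, 36.2 and 26.2 against 72.0, 73.2 and 29.8 CPM (log2 change of -1.0 with SE 0.27, edgeR quasi-likelihood adjusted p = 0.49), and Ankrd37 0.757, 0.826 and 1.20 against 2.45, 1.71 and 1.60 CPM (log2 change of -1.05 with SE 0.44, edgeR quasi-likelihood adjusted p = 0.803). The second Aldoa row, with 2 to 47 counts in these 6 libraries, differed by -1.69 (adjusted p = 0.732, edgeR quasi-likelihood test). Pkm and Eno1 were close to 0, at 0.00054, 95% interval -0.29 to 0.29, and 0.0021, 95% interval -0.31 to 0.31. Without DMI library 3, 7 rows passed (259 of 15241 genes in all), all lower: Gpi1, Pfkfb1, Pgam1, Ldha, Tkt, Bnip3 and Egln3. Same-numbered luteolin and DMI libraries deviated together, and a fit with the replicate number as a block over all 12 libraries again called 0 rows (25 of 14855 genes in all). On the 6 libraries of this pair alone the blocked fit called 11 rows, all lower (929 of 14111 genes in all). They are Pfkfb1 (-1.48, adjusted p = 0.00152), Tkt (-0.86, adjusted p = 0.00296), Pfkfb3 (-0.44, adjusted p = 0.00589) and Egln3 (-0.93, adjusted p = 0.021), with Hk2, Gpi1, Aldoa, Ldha, Ldhb, Pgd and Taldo1 between -0.44 and -0.60 at adjusted p of 0.0143 to 0.0469, by edgeR's quasi-likelihood test. With library 3 of each induced group left out 20 rows passed, all lower (1566 of 15106 genes in all).

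With quercetin 5 of the 37 rows fell (13.5%, against 0.848% of all genes) and 0 rose (0.162% of all genes), by edgeR's quasi-likelihood test. They are Pfkfb1, Egln3, Tkt, Gpi1 and Pfkp. The median log2 fold change was -0.60, against 0.016 for all genes tested, and 29 of 37 values were below 0 (78.4%, against 48.4%). An unadjusted p under 0.05 was reached by 24 rows (64.9%, against 21.3% of all genes), and the quercetin libraries lay below all DMI libraries for 13 (35.1%, against 7.35%) and above them for 0 (against 6.68%).

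Pfkfb1 measured 6.11, 5.46 and 6.01 CPM with quercetin, 36.4, 37.3 and 9.97 with DMI alone and 5.04, 5.13 and 5.02 in untreated cells, so the quercetin libraries sat just above the untreated level. It fell 4.75-fold (log2 change of -2.25 with SE 0.41, edgeR quasi-likelihood adjusted p = 0.042). Apex2, on the opposite strand, fell as well, by 1.17 on the log2 scale (adjusted p = 0.0488, edgeR quasi-likelihood test). Egln3 measured 21.0, 19.7 and 21.7 CPM with quercetin, below every DMI library and above every untreated one, and fell 2.81-fold (log2 change of -1.49 with SE 0.27, edgeR quasi-likelihood adjusted p = 0.042). Tkt measured 219, 215 and 152 CPM with quercetin, where the third library lay within the untreated range, and fell 2.28-fold (log2 change of -1.19 with SE 0.25, edgeR quasi-likelihood adjusted p = 0.0484). Gpi1 measured 217, 218 and 187 CPM, below the untreated libraries (log2 change of -0.78 with SE 0.16, edgeR quasi-likelihood adjusted p = 0.0484). Pfkp measured 52.6, 49.5 and 42.7 CPM (log2 change of -0.70 with SE 0.15, edgeR quasi-likelihood adjusted p = 0.0492).

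These 5 calls depend on which libraries enter. All 5 were kept without DMI library 3 (22 rows passed, all lower, with 2646 of 15241 genes in all), without luteolin library 3 (6 rows, with 273 of 15234 genes in all) and without quercetin library 1 (7 rows, with 575 of 15214 genes in all). Without any 1 of the other 9 libraries, 0 rows passed, and with only the 6 libraries of this pair 0 passed, the lowest adjusted p being 0.19 (edgeR's quasi-likelihood test). DESeq2 called 18 rows (984 of 14855 genes in all) and limma-voom 0 (1 gene in all). With library 3 of each induced group left out 22 rows were lower and 3, Hk1, Eno3 and Hif1a, higher (5049 of 15106 genes in all). The authors' deposited table gives 9 rows lower at 0.05 (Hk2, Pfkl, Pfkfb1, Pfkfb3, Aldoa, Ldhb, Tkt, Bnip3 and Egln3), 3 of them among the 5 here, and 0 rows for luteolin. The share of all genes passing in the authors' comparisons was not computed, so these counts have no background beside them.

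Several of the strongest risers with DMI fell short of the threshold with quercetin. Hk2 measured 79.0, 63.3 and 42.6 CPM (log2 change of -1.47 with SE 0.32, edgeR quasi-likelihood adjusted p = 0.0506), below every DMI library. Pfkfb3 measured 77.3, 71.8 and 29.3 CPM (log2 change of -1.52 with SE 0.46, edgeR quasi-likelihood adjusted p = 0.105), where quercetin library 1 lay just above DMI library 3. Pfkl differed by -1.32, adjusted p = 0.0594, Bnip3 by -1.23, adjusted p = 0.0636, Aldoa by -1.30, adjusted p = 0.0866, Ldhb by -1.40, adjusted p = 0.0866 and Taldo1 by -1.21, adjusted p = 0.0947 on the log2 scale (edgeR's quasi-likelihood test). The third quercetin library was the lowest for Hk2, Pfkl, Pfkfb3, Aldoa, Ldhb, Tkt and Taldo1, as it was for Fabp4, but not for Bnip3, Egln3 or Pfkfb1, whose 3 quercetin libraries lay close together. Hif1a went the other way, at 149.7, 185 and 385 CPM with quercetin against 144, 119 and 188 with DMI (log2 fold change 0.67, adjusted p = 0.205, edgeR quasi-likelihood test), with the third library far above its partners. Pkm and Eno1 were again near 0, at 0.046, 95% interval -0.24 to 0.34, and 0.039, 95% interval -0.27 to 0.35.

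**Figure D3:**
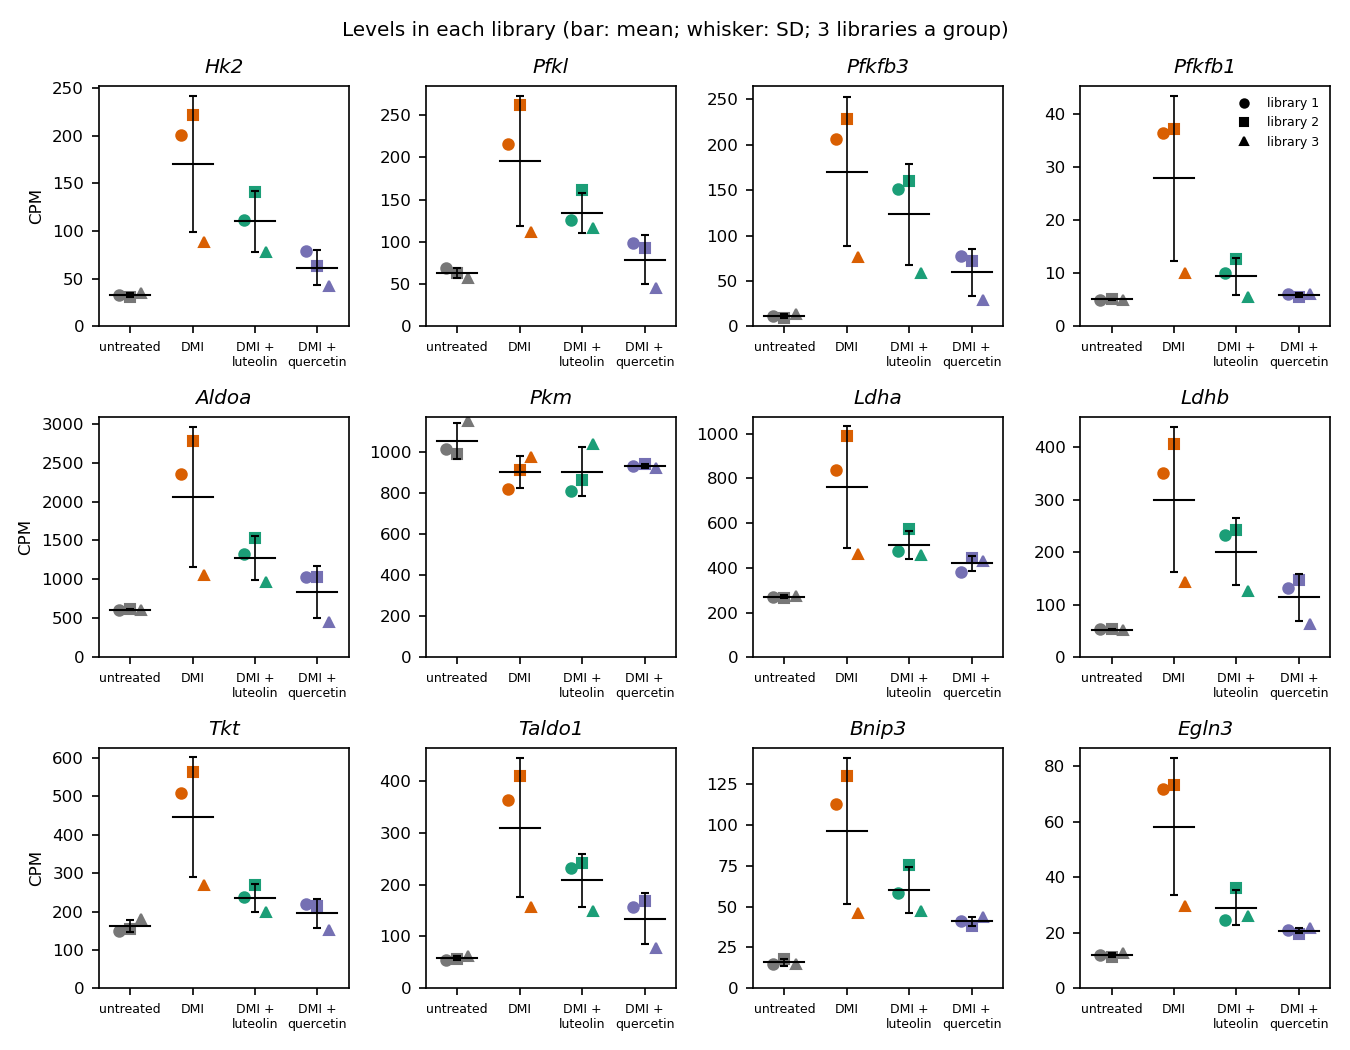
Level in CPM (y axis, linear from 0) of 12 of the 36 genes in each of the 12 libraries by group (x axis); marker shapes give the library number, bars the mean and whiskers the SD of 3. For most genes the third DMI library is far below the other two, and the quercetin libraries of Bnip3 (38.4 to 43.4) and Egln3 (19.7 to 21.7) lie close together, while Pkm differs little between groups.

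**Figure D4:**
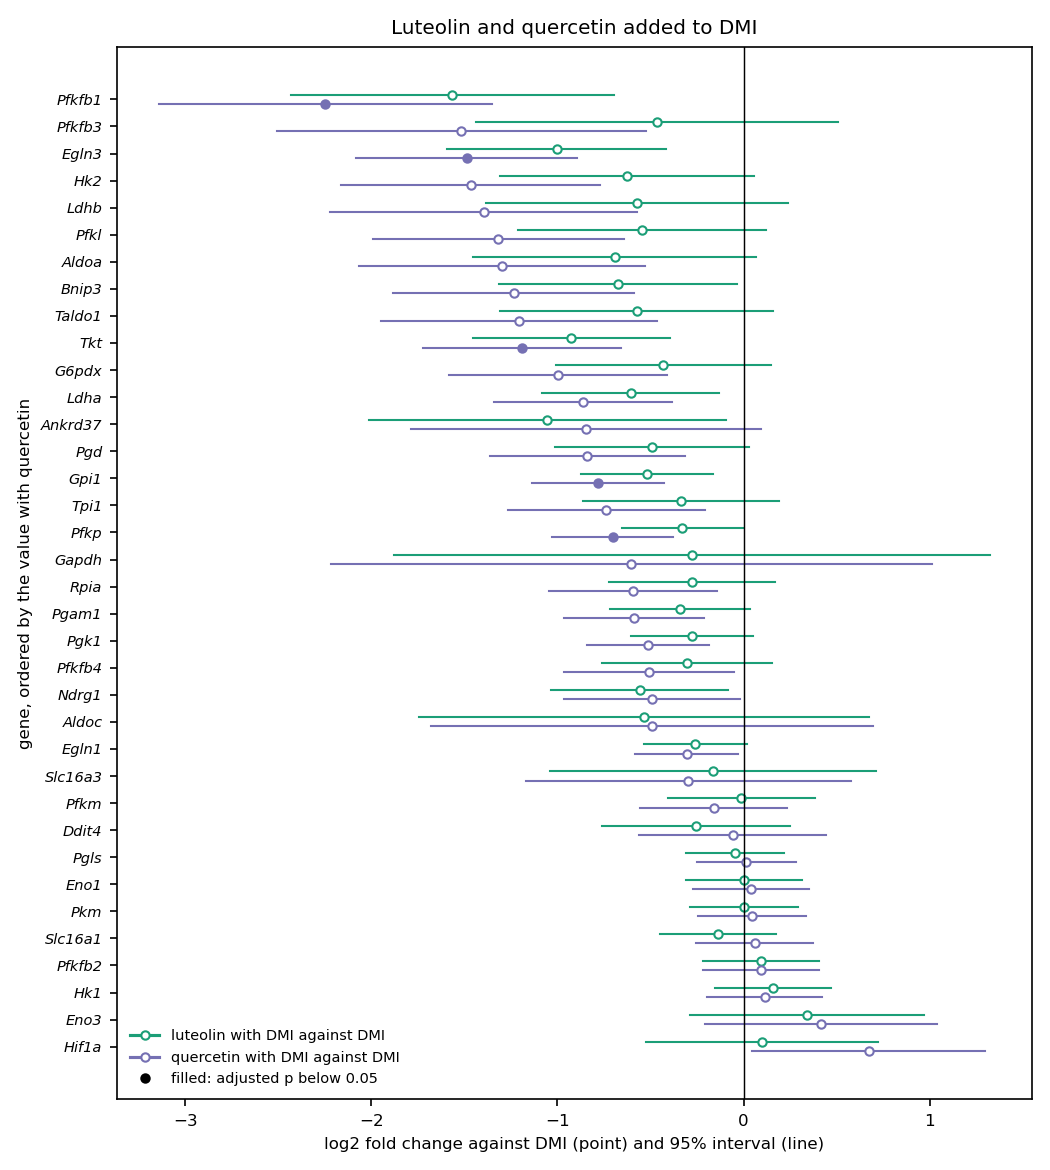
Log2 fold change of each of the 36 genes (y axis) with luteolin (green) or quercetin (purple) added to DMI, against DMI alone (x axis), with 95% intervals; both use the same DMI libraries. The 5 filled points, all with quercetin, passed the test, and the second Aldoa row is not drawn.

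Luteolin, a flavone, and quercetin, a flavonol, differ by a hydroxyl group, and the last comparison sets the cells given each of them side by side. Their doses and times are not in the labels and may differ, so the values do not compare the compounds at matched doses. Over the 37 rows compared, 0 passed edgeR's quasi-likelihood test (0% of all genes did), 5 had an unadjusted p under 0.05 (13.5%, against 8.93% of all genes), and DESeq2 and limma-voom also called 0 (3 and 0 genes in all). The lowest adjusted p among the rows was 0.541. Values were higher with luteolin for 27 of 37 rows (73.0%, against 48.4%), with a median of 0.25. All luteolin libraries lay above all quercetin ones for 8 rows (21.6%, against 5.20% of all genes): Gpi1, Pfkl, Pfkp, Pgam1, Ldha, G6pdx, Bnip3 and Egln3. With library 3 of each induced group left out 14 rows passed, 13 of them higher with luteolin and Ddit4 lower (2081 of 15106 genes in all).

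The largest difference was that of Pfkfb3, with 151, 160.2 and 58.9 CPM with luteolin and 77.3, 71.8 and 29.3 CPM with quercetin (log2 difference 1.05, 95% interval 0.07 to 2.03, adjusted p = 0.547, edgeR quasi-likelihood test). The third luteolin library lay below the first 2 quercetin ones. Hk2 differed by 0.84, 95% interval 0.15 to 1.53, Ldhb by 0.82, 95% interval 0.0057 to 1.64, and Pfkl by 0.77, 95% interval 0.10 to 1.44, all higher with luteolin. None of these passed (adjusted p = 0.541, 0.555 and 0.541, edgeR quasi-likelihood test). For the genes that fell with quercetin, the interval between the compounds ran from -0.20 to 1.57 for Pfkfb1, -0.11 to 1.07 for Egln3, -0.26 to 0.79 for Tkt, -0.089 to 0.62 for Gpi1 and 0.05 to 0.70 for Pfkp. These intervals, which are not adjusted for the number of genes, leave room for no difference at 4 of the 5 genes. They also leave room for differences of up to 1.57 at Pfkfb1. Pfkp did not pass between the compounds either (adjusted p = 0.541, edgeR quasi-likelihood test). The narrowest were those of Pgls (-0.062, 95% interval -0.33 to 0.20) and Egln1 (0.045, 95% interval -0.23 to 0.32).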

How the data were processed

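The submitters sequenced bulk RNA in 12 libraries, whose sample titles give group and replicate number. Raw counts per gene stand in the deposited table; the submitters' processing notes name featureCounts 1.5.0-p3 and CASAVA 1.8.2. The aligner and the strand setting are not given in the sources used here. FPKM values deposited by the authors in the same table were used only to compare ranks and levels. Log2 fold changes and adjusted p-values of the authors' own comparisons are in the deposited table too, with the tool not given. The notes name mm9, but 36 of the 37 gene positions used here match GENCODE M21, hence coordinates are given on GRCm38.

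Genes passing filterByExpr were TMM-scaled and tested with edgeR 4.0.16 in R 4.3.3 (quasi-likelihood F test) in a single model of 12 libraries with group as its factor. P-values were adjusted by Benjamini-Hochberg over all 14855 genes tested within each of 4 comparisons, at a threshold of 0.05. SE is the log2 fold change divided by the root of the F statistic. The fit was tested on simulated counts drawn without any shift shared by the third libraries, so that check does not cover such a shift. The 36 members, the lists of other genes and the alternatives were chosen with earlier results of these data known. All 36 members may be named; those that passed or differed by 1 or more on the log2 scale are given in full, of other lists up to 4 genes that passed, and Slc2a1 was added after its value was seen. Alternatives were RLE scaling, library totals, other low-count filters, DESeq2 1.42.0, limma-voom 3.58.1, other sets of libraries and a replicate block. Replicates of a group differed by more than sampling noise in every pair (chi-square at least 2.75 per gene). Same-numbered luteolin and DMI libraries deviated together (r = 0.261, 0.337 and 0.59). For quercetin and DMI libraries r was 0.0682, 0.279 and 0.335, and in the remaining comparisons it was at most 0.207. The labels do not say what a number marks. The main test did not pair libraries in any comparison, and the replicate block was an alternative in all of them.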

Additional observations from a re-analysis of the deposited data

How the results depend on the processing

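Recomputed under 23 alternatives for the 27 tests of single rows that were called, and for Gapdh between DMI and untreated, 526 fold changes kept their direction and their side of the threshold, 116 kept their direction but lost the call, 1 (Gapdh without the low-count filter) gained it, and 1 reversed: Gapdh between DMI and untreated, at 0.82 without untreated replicate 2, while leaving out other single libraries gave values down to -1.92. Of the 121 tests not called, Gapdh included, 61 gained a call under at least 1 alternative. Such gains numbered 177 in all, with 91 in the quercetin and 44 in the luteolin comparison, 22 in that of DMI with untreated cells and 20 where luteolin is set against quercetin. Hif1a between DMI and untreated also passed with the replicate block over 12 libraries (adjusted p = 0.0145, edgeR) and over the 6 compared (adjusted p = 0.0225, edgeR). For DMI against untreated the count of 22 rows called stayed within 17 and 26 when single libraries were left out and within 19 and 23 under the other scalings, filters, tools and fits. All genes called then numbered 1865 to 5569 and 3789 to 4662, against 4024 in the main fit. The 0 rows called for luteolin became 5 without the low-count filter (363 of 29036 genes in all) and 1 with DESeq2 (48 of 14855). The count became 11 with a replicate block on only the 6 libraries compared (929 of 14111) and 20 without library 3 of each induced group (1566 of 15106). It was 0 to 7 with single libraries left out (0 to 259 genes in all). The 5 rows called for quercetin stood among 150 genes in all. They became 2 with library totals only, with 1 CPM in 3 libraries or with protein-coding genes only (59, 55 and 50 genes in all). The count became 20 without the filter (1737 of 29036), 18 with DESeq2 (984 of 14855), and 0 with limma-voom or only the 6 libraries compared (1 and 0 genes). It was 19 with the replicate block (1395 of 14855) and 11 with the block on only 6 libraries (706 of 14116). Without library 3 of each induced group it was 25 (5049 of 15106), and with single libraries left out 0 to 22 (0 to 2646 genes in all). Between the compounds 0 became 5 without the filter (450 of 29036 genes in all) and 1 with the block on 6 libraries (36 of 14094). It became 14 without library 3 of each induced group (2081 of 15106), and stayed 0 with single libraries left out (0 to 10 genes in all). The alternatives without library 3 and with the block on 6 libraries were chosen after seeing the data. The causes were not tested. With 3 libraries a group, counts near 2 CPM or lower (Aldoc, Slc16a3, Ankrd37 and the second Aldoa row) give intervals too wide to show moderate differences.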

Other observations

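The excess of Gapdh in untreated library 2 was shared by few other genes. With 1 CPM added to each side, the ratio of library 2 to the mean of the other untreated libraries was 11.3 for Gapdh. The next highest of these ratios were 8.94 for Gm10240 (22, 412 and 39 counts in libraries 1, 2 and 3), 3.41 for Sumo2 (193, 643 and 150 counts) and 2.49 for Gm3531 (82, 221 and 71 counts). The added 1 CPM lowers the ratios of genes with few counts most. The other glycolytic genes of that library lay with its partners, as Aldoa did at 622 CPM against 605 and 608.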
